A study of Mus musculus with 4 samples.

Results

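The genes that recycle, store and move iron were followed in the stem cell fraction of mouse fetal liver, sorted as lineage-negative cells with both Sca-1 and c-Kit on their surface (LSK cells). All rows of the deposited gene table whose symbol equals *Slc40a1*, *Hmox1*, *Trf*, *Tfrc*, *Fth1*, *Ftl1*, *Hamp*, *Slc11a1*, *Slc11a2* or *Cp* were taken, which gave 10 genes of 39186 in all. RNA sequencing compared 2 *Pich*-KO with 2 *Pich*-WT samples, all of strain C57BL/6. The *Pich*-KO embryos carry a short deletion in the second exon of the X-linked *Pich* gene, made with TALENs in every cell of the animal, and the study's methods place cell sorting at mid-gestation. The lineage antibodies named there are against CD4, CD8, Gr-1, B220 and Ter119, and no antibody against a macrophage antigen such as F4/80 is named among them. The labels do not say how many embryos went into a sample, so the p-values measure the spread between these samples only. The PICH gene, listed as *Ercc6l* (chromosome X, 102141716 to 102157091), had normalized counts of 1142 and 1232 in *Pich*-KO against 772 and 661 in *Pich*-WT samples 1 and 2, and as the mutant transcript is still counted this does not check the labels. Reads on genes ran from 14703215 to 20933919 per sample, and *Pich*-WT sample 2 stood apart with 0 reads on 4 Y-linked genes against 1607 to 2848 in the other samples. Of the genes taken as markers of LSK cells, *Kit* (2328 to 4447), *Cd34* (6226 to 11424) and *Flt3* (2478 to 4481) were present in all samples as normalized counts. *Procr*, *Hlf*, *Mecom* and *Slamf1* were lower in *Pich*-KO, at 14.0%, 20.5%, 23.9% and 53.1% of *Pich*-WT (adjusted p from 0.00075 to 0.044, limma). *Ly6a*, the gene for Sca-1, was higher in *Pich*-KO, at 335% of *Pich*-WT (adjusted p = 0.00017, limma). *Kit* (149%) and *Cd48* (124%) lay above *Pich*-WT without overlap (adjusted p = 0.11 and 0.13, limma). *Flt3* (70.6%) and *Meis1* (68.2%) lay below *Pich*-WT without overlap (adjusted p = 0.072 and 0.093, limma). The groups overlapped in *Cd34*.

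Iron circulates in plasma bound to transferrin and enters cells when transferrin binds the transferrin receptor and is taken into endosomes. Inside the cell, iron that is not used is held in the ferritin shell, which is built from heavy and light chains. Macrophages of the liver and spleen take up old or damaged red cells, free the iron from heme with heme oxygenase and return it to plasma through ferroportin, the only known iron exporter of mammalian cells. Hepcidin, a peptide hormone made by hepatocytes, removes ferroportin from the cell surface. The iron regulatory proteins bind hairpins called iron-responsive elements in several of these mRNAs. An element before the coding sequence lets them block translation, and elements after it let them protect the mRNA from decay.

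Matches to 1 pattern of the iron-responsive element are shown because they divide the members with a match into mRNAs with the hairpin before and after the coding sequence. The GENCODE M21 transcripts, on GRCm38, were searched on the transcribed strand for the letters CNNNNNCAGTGNNNNNN in which the 5 bases before the loop pair with the last 5 bases. Each window below has 30 bases, read 5′ to 3′, with the CAGTGN loop in capitals.
Slc40a1, 5′ UTR, minus strand, chr1:45925464-45925493: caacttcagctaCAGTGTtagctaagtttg
Fth1, 5′ UTR, plus strand, chr19:9982732-9982761: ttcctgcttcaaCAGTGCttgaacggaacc
Ftl1, 5′ UTR, minus strand, chr7:45459778-45459807: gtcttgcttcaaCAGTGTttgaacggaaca
Tfrc, 3′ UTR, plus strand, chr16:32631219-32631248: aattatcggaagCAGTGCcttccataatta
Tfrc, 3′ UTR, plus strand, chr16:32631598-32631627: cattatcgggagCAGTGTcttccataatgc
Tfrc, 3′ UTR, plus strand, chr16:32631663-32631692: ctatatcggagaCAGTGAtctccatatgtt
Tfrc, 3′ UTR, plus strand, chr16:32631710-32631739: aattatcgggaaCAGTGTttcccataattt
Among 21901 protein-coding genes, 0.142% had this pattern in a 5′ UTR and 0.589% in a 3′ UTR. No transcript of the other 6 members had a match, which says only that these letters and this pairing are not there. A match is a description and was not tested as a binding site.

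Most of the iron genes were lower in *Pich*-KO LSK samples and none was higher. The test was limma, run on log2(normalized count + 1) for 32428 genes whose mean reached 1 or more, and p was adjusted over all these genes by Benjamini-Hochberg. At an adjusted p of 0.05, 6 of the 10 members were lower (*Slc40a1*, *Hmox1*, *Slc11a1*, *Trf*, *Ftl1* and *Fth1*), 0 were higher and 4 did not pass, where 9.6% of all genes tested were lower and 7.58% higher, 17.2% in either direction. At an unadjusted p under 0.05 still 0 members were higher, and edgeR on the recovered reads also called 0 higher. The share of all genes depends on how many low genes are tested. In that edgeR fit 7 members were lower, beside 20.7% lower and 18.6% higher of 16608 genes tested. The median log2 fold change was −0.88 over the members and 0.02 over all genes tested. The *Pich*-KO values lay below both *Pich*-WT values in 7 members, above them in 1, *Tfrc*, and overlapped them in 2, *Hamp* and *Cp*. Over all genes tested, 27.2% lay below and 28.9% above. The members and all lists below were chosen with earlier results of these data known, so such shares are descriptions only. Of all reads on genes the members took 0.337% (*Pich*-KO sample 1), 0.354% (*Pich*-KO sample 2), 0.673% (*Pich*-WT sample 1) and 0.744% (*Pich*-WT sample 2), and values below keep this order of samples.

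**Figure D1:**
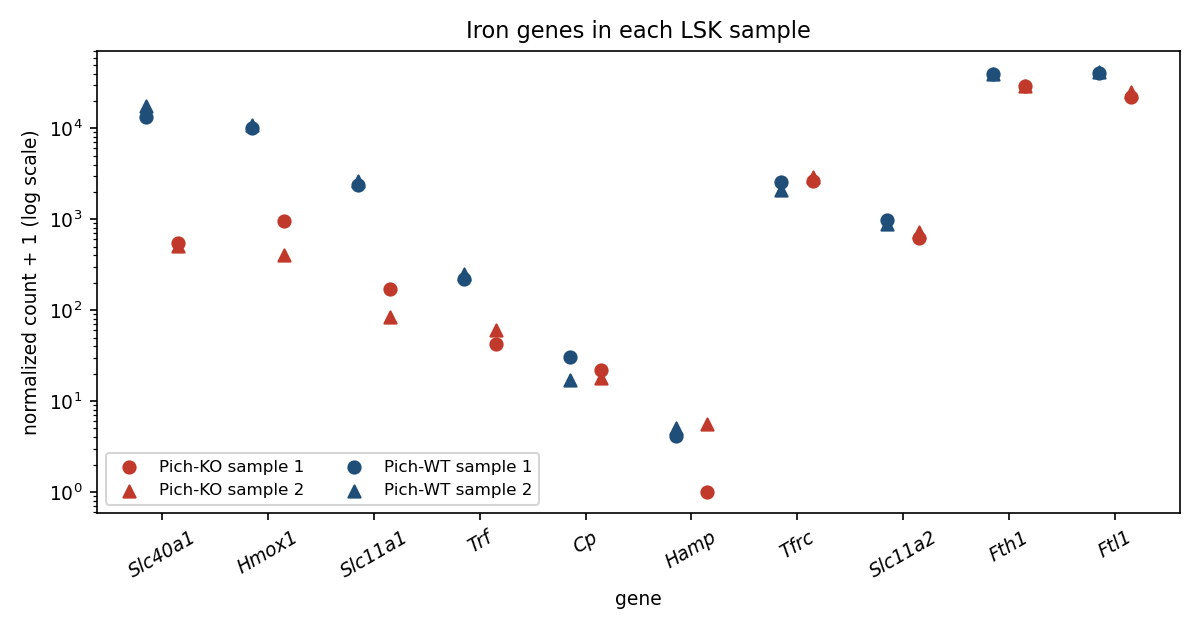
Normalized count plus 1 (log axis) of the 10 iron genes in each of the 4 LSK samples, with *Pich*-WT in blue on the left and *Pich*-KO in red on the right of each gene, and circles and triangles for samples 1 and 2. The *Pich*-KO values of *Slc40a1*, *Hmox1* and *Slc11a1* sit more than 10-fold below the *Pich*-WT values, while those of *Fth1*, *Ftl1*, *Slc11a2* and *Tfrc* stay near them.

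The genes of iron recycling fell most. *Slc40a1* (ENSMUSG00000025993, chromosome 1, 45908068 to 45926523, minus strand) encodes ferroportin. It had normalized counts of 551 and 507 in the mutant and 13376 and 17538 in *Pich*-WT samples. The groups were far apart, with 3.42% of the *Pich*-WT level left in *Pich*-KO. On the log2 scale the difference, *Pich*-KO minus *Pich*-WT, was −4.85 (standard error 0.14, adjusted p = 4.5e-06, limma).

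*Hmox1* (ENSMUSG00000005413, chromosome 8, 75093621 to 75100589, plus strand) encodes the inducible heme oxygenase, which opens the heme ring and frees its iron. *Hmox1* stood at 947 and 405 normalized counts in *Pich*-KO against 9994 and 10790 in *Pich*-WT. Both *Pich*-KO samples were low, and sample 1 was above sample 2. Its log2 fold change was −4.07 (standard error 0.32, adjusted p = 0.00017, limma), and it was −3.45 without *Pich*-KO sample 2 and −4.68 without *Pich*-KO sample 1.

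*Slc11a1* (ENSMUSG00000026177, chromosome 1, 74375195 to 74386062, plus strand) encodes NRAMP1, a metal transporter of the phagosome membrane. Counts after normalization were 170 and 83.0 in *Pich*-KO against 2362 and 2643 in *Pich*-WT. As for *Hmox1*, *Pich*-KO sample 1 was above sample 2, and both lay far under the *Pich*-WT samples. Its log2 fold change was −4.38 (standard error 0.30, adjusted p = 9.1e-05, limma). It ran from −4.90 to −3.87 as each sample was left out.

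Macrophage genes moved with these genes. All 16 macrophage markers were lower in *Pich*-KO at an adjusted p of 0.05 (limma), with a median log2 fold change of −4.84. Their summed normalized count was 9471 and 8229 in *Pich*-KO against 64062 and 66398 in *Pich*-WT. *C1qa*, a complement gene of tissue macrophages, had 73.1 and 68.2 against 3625 and 3540. The defining marker *Vsig4* had 2 and 0 reads in *Pich*-KO against 71 and 43, whereas *Csf1r*, the receptor gene for macrophage growth factor, kept 7268 and 6111 against 16306 and 17259 and made up 76.7% and 74.3% of the *Pich*-KO sums. In bulk RNA, fewer cells of a type and less RNA per cell cannot be told apart.

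Set against the summed macrophage markers of the same sample, *Slc40a1* came to 5.82% and 6.16% in *Pich*-KO against 20.9% and 26.4% in *Pich*-WT. When *Csf1r*, a choice made after its values were seen, was left out of the sum, the shares were 25.01% and 23.9% against 28.0% and 35.7%. The *Pich*-KO values were thus lower in both forms, but close to *Pich*-WT in the second. *Cd68* was still in the second sum, with 723 and 760 of 2202 and 2118 in *Pich*-KO. In *Pich*-WT it was 2906 and 2876 of 47756 and 49139, so these shares depend on the markers summed. A form without *Cd68* was not tested for *Slc40a1* or for any other member. The order of the groups is therefore given for these 2 sums only. For *Hmox1* the shares were 9.997% and 4.92% against 15.6% and 16.3% with *Csf1r*, and 43.0% and 19.1% against 20.9% and 21.96% without it, so the groups overlapped in the second form. For *Slc11a1* they were 1.80% and 1.01% against 3.69% and 3.98% with *Csf1r*, and 7.73% and 3.92% against 4.95% and 5.38% without it, which again overlapped. With 2 samples a group an exact two-sided permutation test cannot go below p = 0.333, and that was its value for *Slc40a1* in both forms.

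Other lists moved too. The summed level of 6 endothelial markers, all lower at an adjusted p of 0.05 (limma), was 2476 and 1537 in *Pich*-KO against 29551 and 19848 in *Pich*-WT. The 11 erythroid markers, all lower (limma), summed to 33279 and 35548 against 200157 and 141501. Of 10 hepatocyte markers, 5 were lower and 0 higher (limma), with sums of 3168 and 2773 against 4930 and 4382. Of 8 neutrophil markers 1 was higher, *Mpo*, and 0 lower, with sums of 56605 and 102098 against 14356 and 16876. *Mpo* carried this difference, since the other 7 neutrophil markers summed to 1958 and 11606 against 4005 and 4343, which overlapped. The neutrophil surface marker *Ly6g* had at most 3 reads in any sample. Of 10 stem cell markers 4 were lower and 1 higher, *Ly6a*, the gene for Sca-1, with sums of 28428 and 18457 against 23531 and 24809. The part of these lists in the iron results was not tested.

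**Figure D2:**
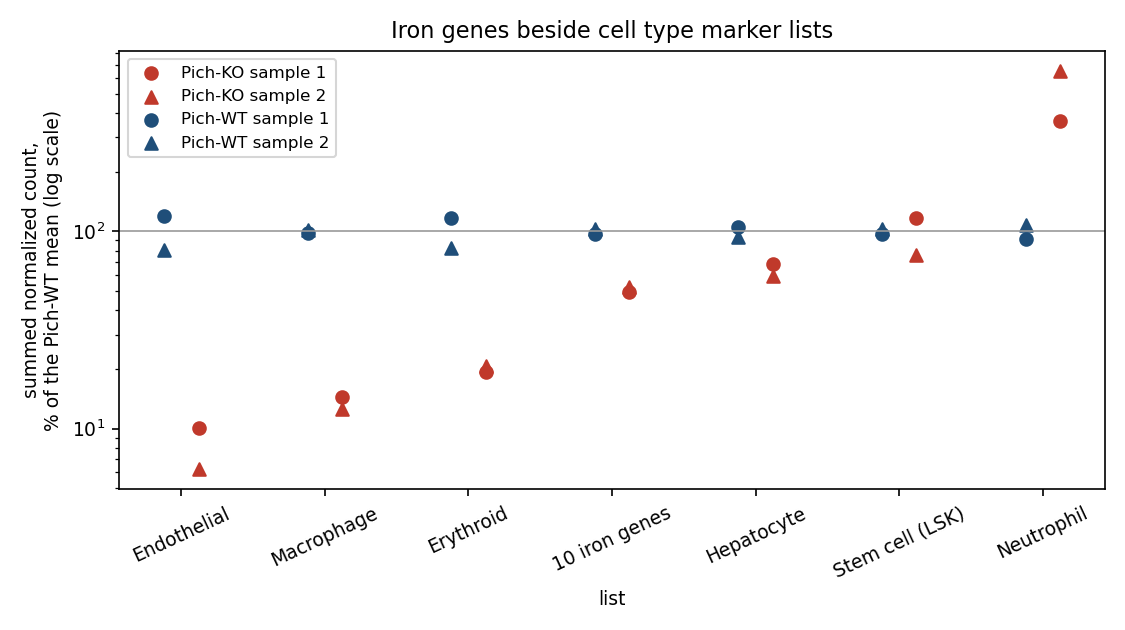
Summed normalized count of each list in each sample as a percentage of the *Pich*-WT mean (log axis), in blue for *Pich*-WT and red for *Pich*-KO, with circles and triangles for samples 1 and 2. The *Pich*-KO mean was 50.9% for the 10 iron genes, which lay between 20.1% for erythroid and 63.8% for hepatocyte markers, with macrophage markers at 13.6% and endothelial markers at 8.12%. The iron sum is mostly *Fth1* and *Ftl1*, and the other 8 iron genes came to 15.2%.

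The genes of plasma iron proteins were low in the LSK samples, and of these *Trf* fell. *Trf* (ENSMUSG00000032554, chromosome 9, 103204001 to 103230444, minus strand) encodes transferrin. *Trf* had 41.4 and 59.1 normalized counts in *Pich*-KO against 222 and 246 in *Pich*-WT. The groups did not overlap, with 21.5% of the *Pich*-WT level in *Pich*-KO. Its log2 fold change was −2.22 (standard error 0.27, adjusted p = 0.0011, limma). Against the macrophage sum *Trf* came to 0.438% and 0.718% in *Pich*-KO against 0.346% and 0.370% in *Pich*-WT, and without *Csf1r* in the sum 1.88% and 2.79% against 0.465% and 0.501%. Here the *Pich*-KO samples were the higher ones in both forms (exact two-sided permutation p = 0.333, the smallest possible). The hepatocyte gene *Alb* had 563 and 548 against 964 and 1015.

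*Cp* (ENSMUSG00000003617, chromosome 3, 19957054 to 20009145, plus strand) encodes ceruloplasmin, a copper ferroxidase that loads iron onto transferrin. It had 20.7 and 17.1 normalized counts in *Pich*-KO against 29.7 and 16 in *Pich*-WT. The groups overlapped, and a log2 difference of −0.21 with standard error 0.47 did not pass the threshold (adjusted p = 0.83, limma). *Hamp* (ENSMUSG00000050440, chromosome 7, 30942368 to 30944032, minus strand), the hepcidin gene, had 0 and 4 reads in *Pich*-KO against 4 and 4 in *Pich*-WT. At this depth a change of *Hamp* was not detectable (adjusted p = 0.58, limma).

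Neither member of iron uptake, *Tfrc* or *Slc11a2*, passed the threshold in limma. *Tfrc* (ENSMUSG00000022797, chromosome 16, 32608920 to 32632794, plus strand) encodes the transferrin receptor CD71, whose mRNA carries the 3′ UTR hairpins shown above. *Tfrc* had 2611 and 2919 normalized counts in *Pich*-KO against 2573 and 2084 in *Pich*-WT. The *Pich*-KO samples were the higher ones, but *Pich*-KO sample 1 and *Pich*-WT sample 1 were nearly level. The log2 fold change was 0.25 (standard error 0.13, adjusted p = 0.25, limma). It was the only member with a positive value in this fit, and without *Pich*-KO sample 1 it passed as higher in edgeR (0.36, adjusted p = 0.021) but not in limma.

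*Slc11a2* (ENSMUSG00000023030, chromosome 15, 100387898 to 100425072, minus strand) encodes DMT1, which carries iron out of the endosome. Normalized counts were 620 and 725 in *Pich*-KO against 985 and 888 in *Pich*-WT. The groups did not overlap, and 71.8% of the *Pich*-WT level was left in *Pich*-KO. A log2 difference of −0.48 with standard error 0.15 missed the threshold (adjusted p = 0.063, limma). In 6 of 9 other fits to all samples, edgeR and DESeq2 among them, *Slc11a2* did pass as lower, and the adjusted p ran from 0.027 to 0.32 over those 9.

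Both ferritin genes fell by a small amount, at the highest counts of the list. *Fth1* (ENSMUSG00000024661, chromosome 19, 9982703 to 9985092, plus strand) encodes the heavy chain, which oxidizes iron as it enters the shell. *Fth1* reached 28982 and 29256 normalized counts in *Pich*-KO against 40003 and 39662 in *Pich*-WT. The samples of a group lay close together, and *Pich*-KO held 73.1% of the *Pich*-WT level. The log2 fold change was −0.45 (standard error 0.05, adjusted p = 0.00098, limma).

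*Ftl1* (ENSMUSG00000050708, chromosome 7, 45457944 to 45459884, minus strand) encodes the light chain, which helps to build the iron core. *Ftl1* reached 21894 and 25224 normalized counts in *Pich*-KO against 40521 and 41883 in *Pich*-WT. This was 57.2% of the *Pich*-WT level, again with no overlap. The log2 fold change was −0.81 (standard error 0.08, adjusted p = 0.00034, limma). Per gene length, the ratio of *Ftl1* to *Fth1* was 0.488 and 0.557 in *Pich*-KO against 0.655 and 0.682 in *Pich*-WT. The exact two-sided permutation test of this ratio gave p = 0.333, the smallest value that 2 samples against 2 allow. Ferritin genes have near-identical copies in the genome, so reads could be split among them. Other ferritin-like genes were found by a symbol that starts with *Fth* or *Ftl*, so copies under other names were not counted. The 5 found, mainly *Ftl1-ps1* and *Ftl2-ps*, held 1.495% to 1.757% of the reads on all genes with such symbols in a sample. The counts of *Ftl1* and *Fth1* are uncertain by reads shared with ferritin copies.

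The mRNAs with a match in the 5′ UTR, *Slc40a1*, *Fth1* and *Ftl1*, were all lower in *Pich*-KO, by very unequal amounts. *Tfrc*, with matches in the 3′ UTR, did not pass the threshold. The search would miss an element of another form, so the other members, *Slc11a2* among them, are not placed by it. *Fth1* and *Ftl1* together were 91.1% and 92.0% of the members' reads in *Pich*-KO against 73.2% and 70.4% in *Pich*-WT.

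**Figure D3:**
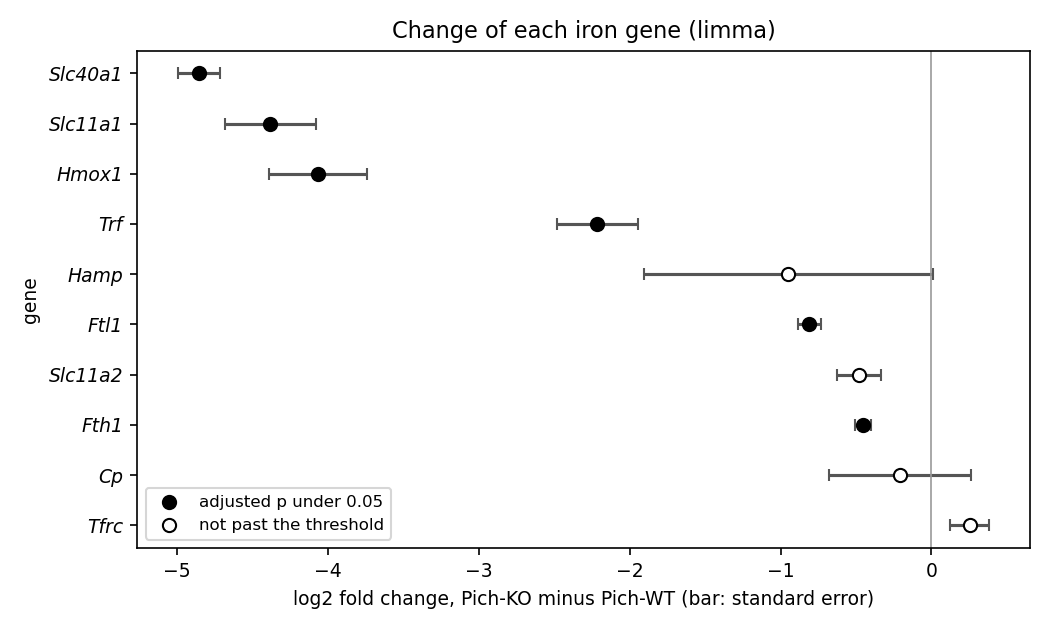
Log2 fold change of each iron gene, *Pich*-KO minus *Pich*-WT, from limma on log2(normalized count + 1), with bars for the standard error and filled points for an adjusted p under 0.05. *Slc40a1*, *Slc11a1* and *Hmox1* lie between −4.85 and −4.07, *Trf* at −2.22, the ferritin genes at −0.81 and −0.45, and *Tfrc* at 0.25.

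Levels can be compared between genes only per length, so normalized counts were divided by the authors' gene length and scaled to a sum of 1000000 in each sample. On this scale *Pich*-WT LSK samples had 8319 ± 236 (SD, n = 2) for *Fth1*, 5564 ± 321 for *Ftl1*, 1074 ± 95.1 for *Hmox1*, 312 ± 69.8 for *Slc40a1*, 122 ± 13.9 for *Slc11a1* and 67.9 ± 7.78 for *Tfrc*. *Slc11a2* followed at 26.6 ± 1.03 and *Trf* at 12.8 ± 1.37, and *Hamp* and *Cp* were under 2. No neighbours in this order overlapped in *Pich*-WT. In *Pich*-KO the ferritin genes stayed on top, at 5819 ± 155 for *Fth1* and 3038 ± 203 for *Ftl1*. *Tfrc* came next at 77.3 ± 3.52, and its values overlapped those of *Hmox1* at 67.4 ± 40.1. *Slc11a2* at 18.3 ± 1.43 was above *Slc40a1* at 10.2 ± 0.93 and *Slc11a1* at 5.96 ± 3.08. *Trf* was at 2.61 ± 0.56, and *Hamp* and *Cp* overlapped each other under 2. These levels depend on the length given for a gene, which for *Slc40a1* is 9000 bases. They are levels of the sorted samples, which also held the macrophage, endothelial and erythroid markers given above. Which cells made the RNA was not tested.

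A further list of genes that handle iron held 69 genes of the table, of which 68 were tested. At an adjusted p of 0.05 (limma), 26 were lower (38.2%), 3 higher (4.41%) and 39 did not pass, beside 9.6% lower and 7.58% higher among all genes tested. In edgeR, which left out more low genes, 28 were lower and 4 higher, beside 20.7% lower and 18.6% higher of 16608 genes tested. Their median log2 fold change was −0.42. Counts by role below are to be read beside these shares of all genes, and with few genes in a role they are descriptions.

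Among the transcription factors of recycling genes 3 of 6 were lower and 0 higher. *Spic*, the factor required for iron-recycling macrophages of the spleen, had 45.8 and 42.1 normalized counts in *Pich*-KO against 955 and 1228 in *Pich*-WT (log2 fold change −4.59, adjusted p = 2.2e-05, limma). *Nr1h3*, which encodes the liver X receptor alpha, had 60.0 and 69.3 against 1107 and 1186 (−4.13, adjusted p = 2.2e-05, limma). *Tfec* changed by −1.15 on the log2 scale (adjusted p = 0.035, limma). *Bach1*, the heme-sensing repressor of *Hmox1*, had 309 and 242 against 234 and 227, and *Nfe2l2*, its activator NRF2, had 1468 and 1546 against 1930 and 1667. Neither passed the threshold (adjusted p = 0.49 and 0.22, limma). Both were named after their values were seen.

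Of 12 genes for heme uptake, export and breakdown, 6 were lower and 1 higher. *Cd163*, the macrophage receptor for hemoglobin bound to haptoglobin, had 4.36 and 2.27 normalized counts against 69.6 and 58 (adjusted p = 0.0012, limma). In *Pich*-KO these are 4 and 2 reads, near or under the floor of 3 reads, so the size of the fall is uncertain. *Slc46a1*, which carries folate and heme, had 37.1 and 39.8 against 225 and 177 (log2 fold change −2.35, adjusted p = 0.00079, limma). *Abcg2*, an exporter of porphyrins, and *Blvra*, a biliverdin reductase, showed the smallest falls of this group that passed (−0.96 and −1.11, adjusted p = 0.0019 and 0.0017, limma). The gene that rose was *Hp*, the haptoglobin gene, with 701 and 2106 against 370 and 315 (1.83, adjusted p = 0.022, limma), where *Pich*-KO sample 2 was far above sample 1. Among the neutrophil markers, *S100a8* had 556 and 3918 against 1173 and 1215, the same order of the *Pich*-KO samples. Unlike *Hp*, *S100a8* in *Pich*-KO sample 1 lay below both *Pich*-WT samples, and it did not pass the threshold (adjusted p = 0.84, limma).

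BMP signalling takes part in the control of hepcidin, and 8 of 15 genes of the hepcidin group were lower and 0 higher. *Hamp* itself had 0 to 4 reads a sample, and the control of hepcidin was not tested. *Bmp6* and *Bmp2*, ligands that sinusoidal endothelial cells of the liver give to hepatocytes, had 8.73 and 1.14 against 195 and 149 and 52.4 and 21.6 against 1476 and 905 (adjusted p = 0.0014 and 0.00018, limma). For *Bmp6* the *Pich*-KO values are 8 and 1 reads, so the size of its fall is uncertain. The summed endothelial markers, at 8.12% of *Pich*-WT, are given above. *Neo1*, a receptor partner of hemojuvelin, and *Smad1* fell least among those that passed, with log2 fold changes of −1.17 and −1.33 (adjusted p = 0.033 and 0.0018, limma).

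In endosomal uptake 3 of 12 genes were lower and 0 higher. *Hfe*, the hemochromatosis gene, had 215 and 172 against 1472 and 1531 (log2 fold change −2.96, adjusted p = 4.6e-05, limma). *Slc39a8*, a metal transporter, had 624 and 668 against 2301 and 1814 (−1.66, adjusted p = 0.00027, limma), and *Snx3*, which helps return the transferrin receptor to the surface, had 4019 and 3797 against 6283 and 5675 (−0.61, adjusted p = 0.003, limma). *Steap3*, the endosomal ferrireductase of erythroid cells, had 1239 and 1275 against 1297 and 1219 and did not pass (adjusted p = 0.998, limma). It was named after its values were seen.

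The iron regulatory proteins moved in opposite directions. *Aco1*, which encodes IRP1, had 922 and 800 normalized counts in *Pich*-KO against 1436 and 1447 in *Pich*-WT (log2 fold change −0.75, standard error 0.13, adjusted p = 0.0056, limma). *Ireb2*, which encodes IRP2, had 670 and 666 against 285 and 335 (log2 fold change 1.11, standard error 0.16, adjusted p = 0.0026, limma). *Fbxl5*, whose product marks IRP2 for degradation when iron is plentiful, had 922 and 922 against 1031 and 1019 and did not pass (adjusted p = 0.48, limma). These are mRNA levels, and IRP activity was not measured.

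Of 10 genes of mitochondrial iron 1 was lower and 1 higher, near the shares of all genes tested (9.6% and 7.58%, limma). *Slc25a37*, the mitoferrin of erythroid cells, had 635 and 843 against 1676 and 1480 (log2 fold change −1.11, adjusted p = 0.0028, limma). Among cytosolic chaperones 2 of 3 tested genes were lower. *Pcbp1*, which delivers iron to ferritin, had 2414 and 2314 against 12657 and 6880 (−1.98, adjusted p = 0.001, limma), and *Ncoa4*, the receptor for ferritin breakdown, had 2009 and 1887 against 2742 and 2502 (−0.43, adjusted p = 0.029, limma). The oxidase gene *Heph*, or hephaestin, had 21.8 and 18.2 against 225 and 193 (−3.32, adjusted p = 0.00025, limma). The other oxidase gene did not pass, but it had only 2 to 5 reads a sample, so a change was not detectable. Of 4 genes for siderophore and lactoferrin proteins *Slc22a17* alone was lower (−2.04, adjusted p = 0.00084, limma).

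**Figure D4:**
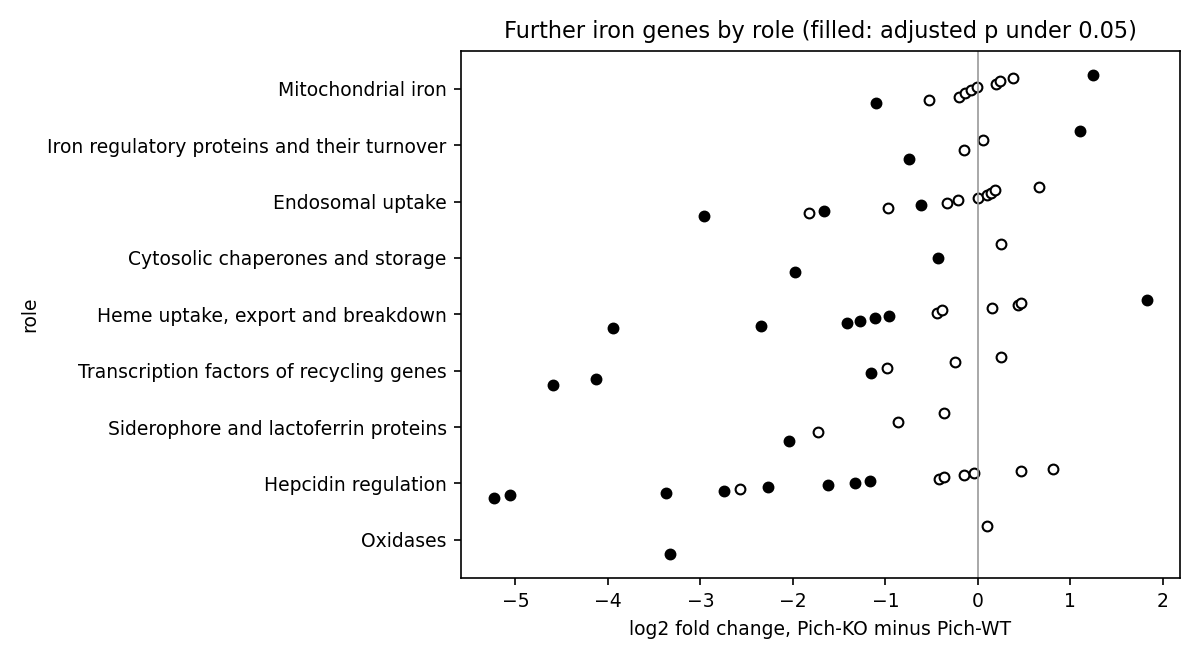
Log2 fold change (*Pich*-KO minus *Pich*-WT, limma) of the 68 further iron genes tested, 1 point a gene, in rows by role and with filled points for an adjusted p under 0.05. The falls over −4 are in hepcidin regulation (*Bmp6*, *Bmp2*) and in the transcription factors (*Spic*, *Nr1h3*), and *Hp* and *Ireb2* are among the 3 genes that rose.

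The genes whose values over the 4 samples were most like those of 3 members were found by the root mean squared difference of log2 profiles, each centred on its own mean. For *Slc40a1* the nearest were *Dmpk* (0.0557), *Spic* (0.131), *C1qb* (0.144), *Adgre1* (0.155) and *Cd38* (0.235). *C1qb* and *Adgre1*, the gene for F4/80, are on the macrophage list. For *Hmox1* the nearest were *Tmem37* (0.0663), *Tpbgl* (0.0994), *Eml1* (0.104), *C1qtnf7* (0.111) and *Pdlim4* (0.142), none of them on a list used here. *Tpbgl*, with 3 and 1 reads in *Pich*-KO, and *C1qtnf7*, with 5 and 2, are near or under the floor of 3 reads, so their distances and places in this order are uncertain. For *Tfrc* they were *Gm11966*, *Taf12*, *Cep57*, *Xkr5* and *Gtf2h5*, from 0.00623 to 0.0203. These profiles hold only 4 samples in 2 groups, and nothing about shared control was tested.

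The adjusted p-values rest on the variance that limma shares between genes of like expression. When limma used 1 prior variance throughout, with no trend, 0 genes passed, although 5 members were lower at an unadjusted p under 0.05, and limma also called 0 genes with any 1 sample left out, which leaves 1 degree of freedom. In edgeR on the recovered reads, added after these results were seen, the same 4 omissions left 6 to 7 members lower, among them *Slc40a1* at log2 fold changes from −5.04 to −4.63.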

How the data were processed

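RNA from sorted fetal liver LSK cells was sequenced from TruSeq libraries in 2 *Pich*-KO and 2 *Pich*-WT samples, grouped by their titles. The deposited values are a signal that the authors made from read counts on genes divided by 1 size factor per sample. In each sample 100% of values were whole multiples of 1 read (tolerance 0.0001), so reads were recovered, 14703215 to 20933919 per sample. The submitters' processing notes name Bowtie 0.12.2 and the builds mm8 and mm9 without a role, but 39131 genes of the table are in GENCODE M21 and 97.8% of these matched its start and end, so coordinates are on GRCm38. The counter is not given in the sources used here. The table's fold changes, p-values and group means by the authors were not used.

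limma 3.58.1 (R 4.3.3) was fitted to log2(value + 1) for genes whose mean reached 1, with its variance trend and with Benjamini-Hochberg adjusted p. On this scale fold changes understate those of low genes. A floor of 3 reads was used for counts near 0. Alternatives were a pseudocount of 0.1, other filters, edgeR 4.0.16 on the recovered reads (3097 genes higher and 3436 lower of 16608), DESeq2 1.42.0, CPM, a replicate block and leaving out each sample. The procedure was run on simulated counts with the same relative spread beyond counting noise for every gene. That run does not test the spread in these samples. Within each group, samples were further apart than counting noise gives (chi-square per degree of freedom 17.7 in *Pich*-KO and 9.54 in *Pich*-WT).

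The members and all lists were chosen with earlier results of these data known. Named genes were every member, the iron regulatory protein genes, and in each role group the 2 largest and 2 smallest log2 fold changes past an adjusted p of 0.05, together with the 5 nearest profiles of *Slc40a1*, *Hmox1* and *Tfrc* among genes with a mean of at least 10. Others are said to have been named later, and list examples were chosen likewise. A gene that this rule names is counted in its list but not reported here.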

Additional observations from a re-analysis of the deposited data

How the results depend on the processing

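Without the variance trend limma called 0 genes higher and 0 lower, against 2459 and 3113 (3343 and 4034 at an unadjusted p under 0.05), and 0 members lower against 6. It then called 0 further iron genes higher and 0 lower, against 3 and 26. The prior variance does not enter the fold changes. Over the fits that left out 1 sample, by limma or by edgeR, genes higher ran from 0 to 3685 and genes lower from 0 to 3917. Members higher ran from 0 to 1 and members lower from 0 to 7, and further iron genes higher from 0 to 7 (5 by edgeR without *Pich*-KO sample 2) and lower from 0 to 29. The edgeR fits were chosen after seeing the data and left 6 to 7 members lower. Apart from members higher, the values of 0 are from limma, where the lone sample is assumed to vary like the other group, and its unadjusted p was under 0.05 for 6 to 8 members lower. The member called higher, by edgeR without *Pich*-KO sample 1, was *Tfrc* (0.36, adjusted p = 0.021). Signs turned for *Hamp* without *Pich*-KO sample 1 (0.29, in a range of −2.18 to 0.29) and for *Cp* without *Pich*-WT sample 1 (−0.63 to 0.22 by limma and −0.62 to 0.25 by edgeR), and the cause was not tested.

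The replicate numbers pair nothing that the labels name, and the deviations of same-numbered samples had a correlation of 0.0133 over 10544 genes. A replicate block in limma gave 3122 genes higher and 3874 lower, the members lower numbered 7 and the further iron genes lower 29, with *Slc11a2* as the added member (adjusted p = 0.029, limma). No other scaling moved the median of all genes by over 0.1. *Hamp*, at 0 to 4 reads a sample, is limited by depth.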
